A study of Homo sapiens with 6 samples.

Results

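AP-1 is a family of dimeric transcription factors built from proteins of the basic leucine zipper (bZIP) class, in which the zipper joins 2 proteins and the basic region binds DNA. FOS proteins cannot pair with each other and need a JUN protein as partner, while JUN proteins also pair among themselves and with ATF proteins. FOS-JUN dimers bind TGACTCA and dimers that contain ATF proteins prefer TGACGTCA. In squamous cells AP-1 is known for its part in growth, invasion and differentiation, and FOS, FOSB, JUN, JUNB and ATF3 are immediate early genes, which means that existing proteins switch them on within minutes of a stimulus. The genes described here were 10 of the 21776 genes in the deposited tables, taken by symbol from a list of FOS, JUN, ATF and MAF genes: FOS, FOSB, FOSL1 and FOSL2 (the FOS group), JUN, JUNB and JUND (the JUN group), and ATF3, BATF3 and MAFF.

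RNA sequencing was performed on SCC25, an established line from a human squamous cell carcinoma of the mouth, with the wild-type genotype in every library. The hypoxia group held 3 libraries of cells kept for 12 h at 1% O2 and 5% CO2, with nitrogen as the balance. The normoxia group held 3 libraries of cells kept for 12 h in 5% CO2 and air. The groups shared medium, serum, kit and line, and the paper's legend for this experiment named SCC9, another oral squamous line, where the sample labels say SCC25. Nothing in the sources says whether the libraries of a group came from separate cultures, so p-values measure the spread between these libraries, which may be technical. Depth, as reads counted on genes, came to 30186813, 36076088 and 32272716 for the hypoxia libraries in replicate order and to 37278703, 29637189 and 29981208 for the normoxia libraries. Squamous identity was checked with 12 markers, whose summed level was 572, 603 and 585 FPKM (fragments per kilobase of gene, scaled to the library's counted reads) in the hypoxia libraries and 377, 370 and 403 FPKM in the normoxia libraries. SFN was the most abundant of them by its mean over the 6 libraries, while ITGB4 exceeded it in each hypoxia library, and KRT14, a defining keratin of the basal layer, had 3 or fewer counts in every library.

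Under hypoxia 7 of the 10 AP-1 genes were higher, 2 were lower and FOSB did not pass the test. FOS rose the most, 11.7-fold, followed by FOSL2 with 5.01-fold and JUN with 3.74-fold. FOSL1, the most abundant AP-1 gene of the normoxic cells, was 3.26-fold lower. Each call is an adjusted p under 0.05 by edgeR's quasi-likelihood test over the 14255 genes that passed the filter on low counts, which all 10 members did. At that threshold 39.2% of all tested genes were higher and 38.5% lower, so a share of 7 in 10 stands against a background in which most genes moved. The median log2-fold change was 1.21 over the members and 0.02 over all genes tested. With a log2-fold change beyond 1 also required, 5 members were higher and 1 lower, where 19.9% of tested genes were higher and 10.5% lower. In 8 members every hypoxia library was above every normoxia library, as for 40.6% of tested genes, and in 2 members every hypoxia library was below, as for 39.9% of tested genes. RNA was taken from whole cultures, so a change in the number of expressing cells and a change in the RNA of each cell cannot be told apart.

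**Figure D1:**
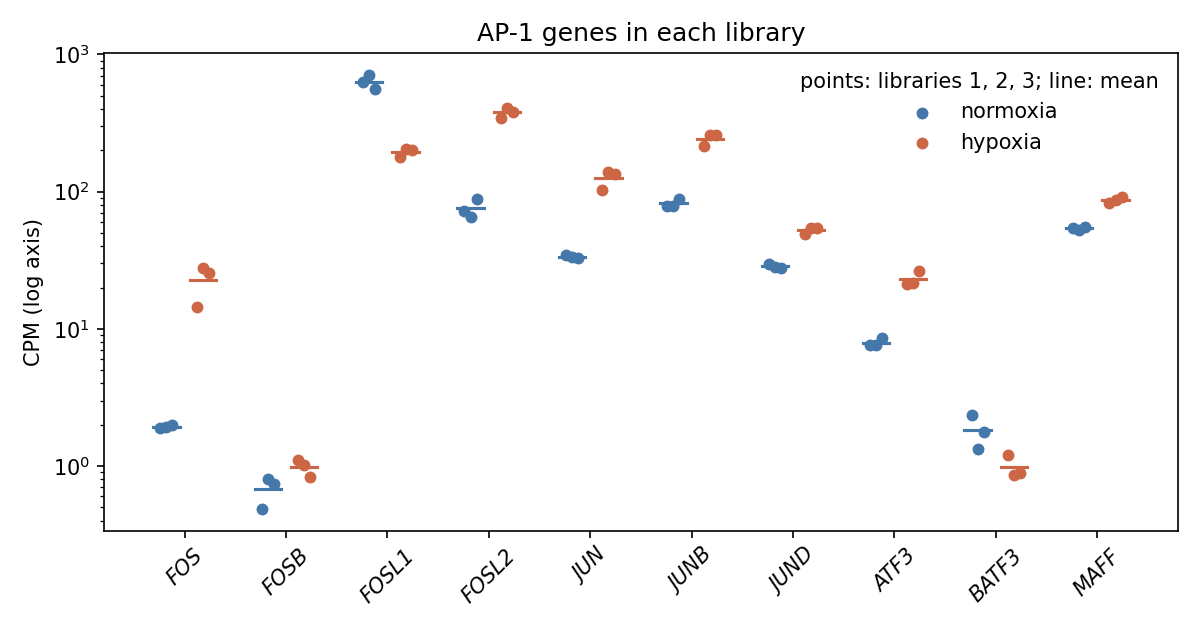
Level of each AP-1 gene in each library as CPM (counts scaled to the TMM-adjusted library size) on a log axis. Each point is a library, blue for normoxia and orange for hypoxia, and the line is the mean of 3 libraries. FOSL1 falls from the highest level in normoxia, 633 CPM, to 194 CPM, while the points of FOS lie farthest apart between the groups.

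FOS is the founding member of its group, a short-lived protein with a strong activation domain. Its level was 14.5, 27.5 and 25.6 CPM (counts scaled to the TMM-adjusted library size) in the hypoxia libraries and 1.88, 1.92 and 1.99 CPM in the normoxia libraries. The groups lay far apart, and hypoxia replicate 1 stood well below the other hypoxia libraries. The means were 22.5 ± 7.04 and 1.93 ± 0.057 CPM (SD, n = 3), a log2-fold change of 3.55 ± 0.21 (SE) with an adjusted p of 7.26e-11 in edgeR's quasi-likelihood test. A change of at least this size was found in 2.41% of tested genes. The spread among the hypoxia libraries, with a coefficient of variation of 31.3%, was the widest of the 10 members, against 2.97% in normoxia. Without hypoxia replicate 1 the log2-fold change of FOS was 3.77, the highest value among the fits that left out a library.

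FOSL2 (Fra-2) and FOSL1 (Fra-1) lack the strong activation domain of FOS and are the longer-lived FOS proteins of epithelial and tumour cells. FOSL2 stood at 346, 404 and 382 CPM in the hypoxia libraries and at 72.7, 65.5 and 87.99 CPM in the normoxia libraries. Every hypoxia library was far above every normoxia library. The log2-fold change was 2.32 ± 0.087 (SE) with an adjusted p of 2.56e-13 in edgeR's quasi-likelihood test. FOSL1 moved the other way, with 178, 203 and 202 CPM in the hypoxia libraries and 632, 711 and 556 CPM in the normoxia libraries. The means were 194 ± 14.4 and 633 ± 77.5 CPM (SD, n = 3), a log2-fold change of -1.70 ± 0.077 (SE) with an adjusted p of 2.52e-12 in that test. Among the 10 members FOSL1 was the 1 that fell by more than 1 on the log2 scale.

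FOSB, a close relative of FOS, had few reads. It had 34, 38 and 27 counts in the hypoxia libraries and 18, 23 and 22 counts in the normoxia libraries. The hypoxia libraries, down to 0.832 CPM, were just above the normoxia libraries, up to 0.804 CPM. The log2-fold change of 0.56 did not pass edgeR's quasi-likelihood test (adjusted p = 0.166). Its 95% interval ran from -0.15 to 1.27, which holds both no change and the rises of MAFF and JUND. Whether FOSB changed is therefore not decided by these counts.

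JUN is a partner that FOS proteins need in order to bind DNA, and JUNB and JUND are its relatives, JUNB with weaker activation and JUND with steadier expression. JUN stood at 103, 139 and 135 CPM in the hypoxia libraries and at 34.3, 33.3 and 33.1 CPM in the normoxia libraries. As with FOS, hypoxia replicate 1 was the lowest of its group while still well above every normoxia library. The log2-fold change of JUN was 1.90 ± 0.089 (SE) with an adjusted p of 3.51e-12 in edgeR's quasi-likelihood test. JUNB stood at 214, 257 and 257 CPM in the hypoxia libraries and at 79.1, 78.7 and 88.2 CPM in the normoxia libraries. The groups did not overlap, and the log2-fold change was 1.57 ± 0.072 (SE) with an adjusted p of 2.92e-12 in that test. JUNB was the member whose exons overlap another gene in the GENCODE v29 annotation, sharing 259 of 1820 bases with HOOK2 on the opposite strand. Whether the counting used the strand is not given in the sources used here, so reads of that stretch could have been counted for either gene. HOOK2 itself was higher, with a log2-fold change of 0.77. JUND was the least changed of the JUN genes, at 49.3, 54.5 and 54.5 CPM in the hypoxia libraries and 29.9, 28.2 and 27.8 CPM in the normoxia libraries. Its groups did not overlap, and its log2-fold change was 0.88 ± 0.067 (SE) with an adjusted p of 1.84e-09 in that test.

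ATF3 is a stress-induced factor that represses as a homodimer and pairs with JUN proteins. It stood at 21.3, 21.4 and 26.5 CPM in the hypoxia libraries and at 7.60, 7.62 and 8.55 CPM in the normoxia libraries. The hypoxia libraries were well clear of the normoxia libraries, with a log2-fold change of 1.54 ± 0.11 (SE) with an adjusted p of 8.24e-10 in edgeR's quasi-likelihood test. MAFF is a small MAF protein, which has no activation domain and pairs with NFE2-related and BACH factors. It stood at 82.5, 86.5 and 92.1 CPM in the hypoxia libraries and at 53.9, 52.4 and 55.3 CPM in the normoxia libraries. This was the smallest called rise of the 10, 0.69 ± 0.059 (SE) on the log2 scale with an adjusted p of 7.77e-09 in that test, yet every hypoxia library exceeded every normoxia library. BATF3, which pairs with JUN proteins and is best known from dendritic cells, also had few reads, with 37, 32 and 29 counts in the hypoxia libraries and 88, 38 and 52 counts in the normoxia libraries. Normoxia replicate 1 was the highest by a wide margin. The log2-fold change of BATF3 was -0.89 ± 0.31 (SE) with an adjusted p of 0.0143 in that test. The call was lost without hypoxia replicate 2 (adjusted p = 0.0556), hypoxia replicate 3 (adjusted p = 0.0511) or normoxia replicate 1 (edgeR's quasi-likelihood test in each, adjusted p = 0.104).

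**Figure D2:**
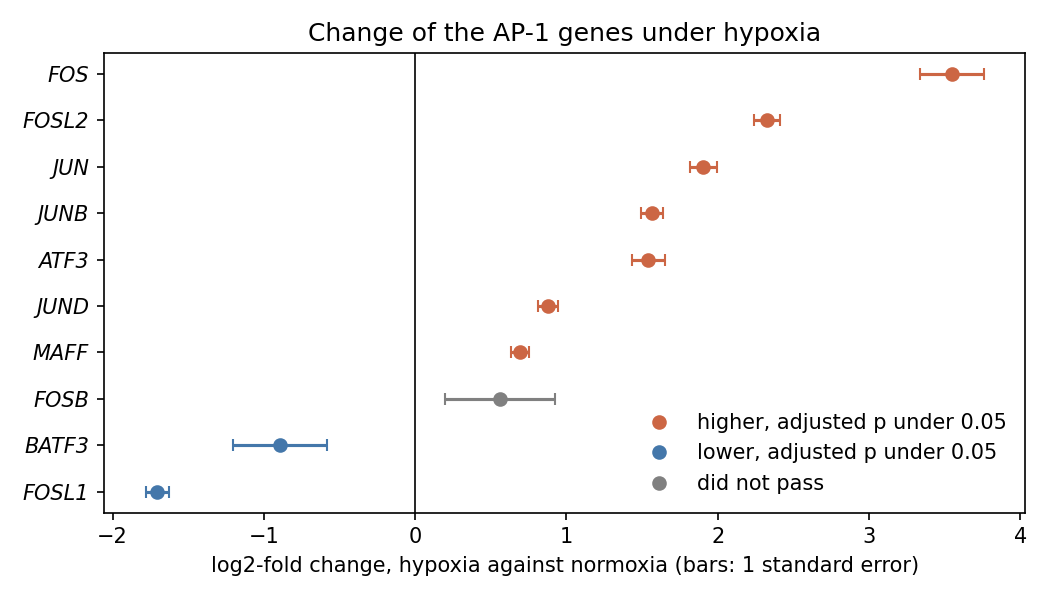
Log2-fold change of each AP-1 gene, hypoxia against normoxia, from edgeR's fit of 3 libraries per group, with bars of 1 standard error. Orange points are higher and blue points lower at an adjusted p under 0.05. FOSB, in grey at 0.56, has the longest bar and did not pass, and FOSL1 is the lowest point at -1.70.

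Hypoxia replicate 1 was the lowest hypoxia library for 8 of the 10 members. The same library was the lowest for 4562 of all 14255 tested genes and for 13 of the 15 hypoxia response genes, a pattern looked for after the values had been seen. The 7 higher members were 7 without that library as well. The part of this library in the size of the changes was not tested beyond the fits that leave it out.

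Levels of different genes can be compared per length, as FPKM. In normoxia FOSL1 led with 366 ± 40.7 FPKM (SD, n = 3), followed by JUNB with 44.1, MAFF with 21.5, JUND with 14.6, JUN with 10.1, FOSL2 with 8.45, ATF3 with 2.72, BATF3 with 1.42, FOS with 0.903 and FOSB with 0.176 FPKM on average. Each neighbouring pair in that order was separate in its 3 libraries, except JUN and FOSL2, whose ranges touched at 9.87 and 9.88 FPKM. In hypoxia the order was JUNB with 135 ± 14.4, FOSL1 with 116 ± 9.17, FOSL2 with 43.7, JUN with 39.2, MAFF with 35.8, JUND with 27.8, FOS with 10.9, ATF3 with 8.17, BATF3 with 0.795 and FOSB with 0.266 FPKM. There, JUNB and FOSL1 overlapped, as did FOSL2 and JUN, JUN and MAFF, and FOS and ATF3. FOS thus stood 9th in normoxia and 7th in hypoxia, and FOSL2 6th and 3rd.

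FOSL1 made up a smaller part of the FOS group in each hypoxia library than in any normoxia library, and FOSL2 and FOS a larger part. FOSL1 supplied 69.1%, 66.8% and 68.0% of the group's summed FPKM in the hypoxia libraries and 97.6%, 98.0% and 96.7% in the normoxia libraries. No hypoxia library came near a normoxia library, and the difference of the means was -29.4 percentage points (exact permutation test, 2-sided p = 0.1, the smallest that 3 against 3 libraries can give). The share of FOSL2 was 25.6% ± 0.626 against 2.29% ± 0.616 and that of FOS 6.28% ± 1.51 against 0.243% ± 0.034 (SD, n = 3 per group), each with p = 0.1 by the same exact test. The ratio of FOSL1 to FOSL2 was 2.66 ± 0.071 in hypoxia and 44.5 ± 11.7 in normoxia. These shares depend on the gene lengths that the deposited FPKM imply, 1702 bases for FOSL1 and 8787 bases for FOSL2. By counts, without the lengths, FOSL1 held 32.7% of the group in hypoxia and 88.9% in normoxia, and FOSL2 was then the larger share in hypoxia with 63.4%.

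Summed over its genes, the FOS group was lower and the JUN group higher in each hypoxia library than in any normoxia library. The FOS group summed to 153, 184 and 176 FPKM in the hypoxia libraries and 380, 412 and 334 FPKM in the normoxia libraries. The JUN group summed to 176, 218 and 211 FPKM in the hypoxia libraries and 69.1, 65.5 and 71.8 FPKM in the normoxia libraries. Neither sum overlapped between the groups (exact permutation test, p = 0.1 for each). The sum of the FOS group was 0.847 ± 0.018 times that of the JUN group in hypoxia and 5.48 ± 0.822 times in normoxia (SD, n = 3). As CPM, which leave out the lengths, the FOS group summed to 539, 635 and 611 in the hypoxia libraries and 707, 780 and 647 in the normoxia libraries. These did not overlap either, and the hypoxia mean was 0.837 times the normoxia mean, against 0.455 times by FPKM. The ratio of the FOS group to the JUN group by CPM was 1.42 ± 0.053 in hypoxia and 4.95 ± 0.611 in normoxia (SD, n = 3). It was lower in each hypoxia library by either unit, but which group is the larger in hypoxia turns with the lengths. Within the JUN group JUNB was the largest share in every library, 66.8% ± 0.338 in hypoxia against 64.0% ± 2.00, while JUND held 13.8% ± 0.726 in hypoxia against 21.3% ± 1.32 in normoxia and JUN 19.4% ± 1.04 against 14.7% ± 0.693. By counts the share of JUNB overlapped between the conditions, with means of 57.7% in hypoxia and 56.8% in normoxia (exact permutation test, p = 0.5).

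**Figure D3:**
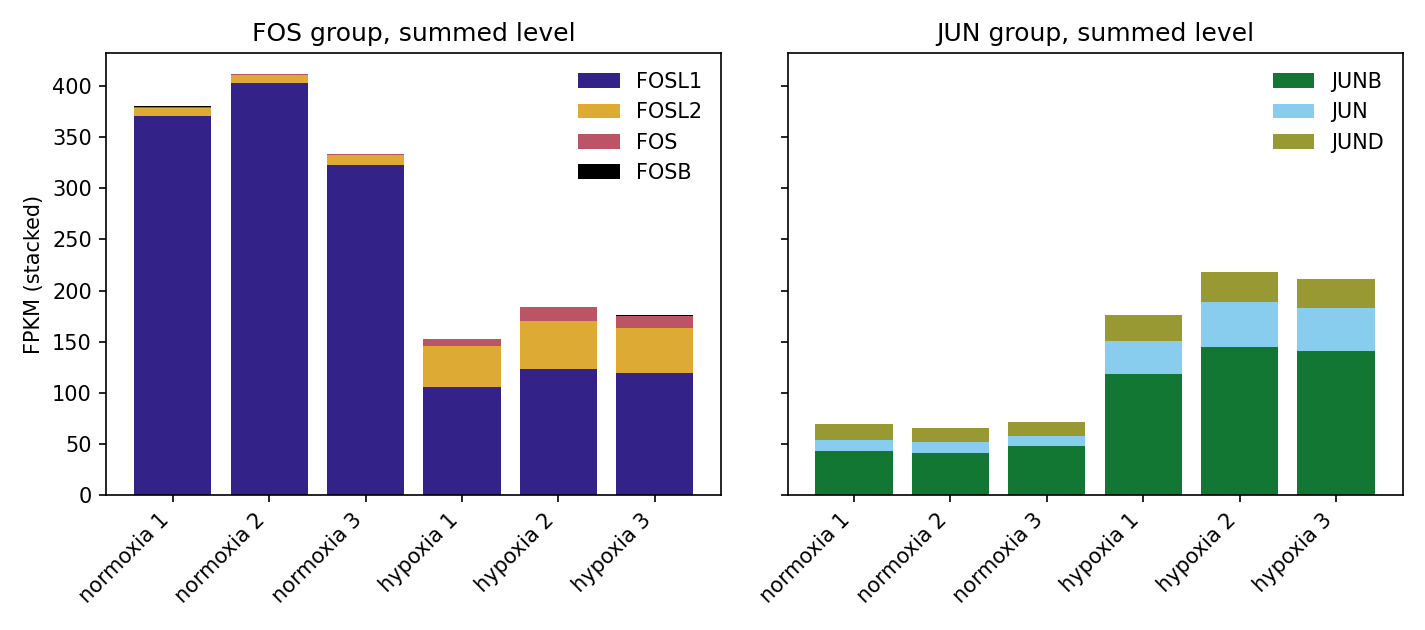
Summed level of the FOS group (left) and the JUN group (right) in each library, as stacked FPKM on a shared axis that starts at 0. FOSL1 makes up nearly the whole left bar in the normoxia libraries, and FOSL2 and FOS appear as visible parts in the hypoxia libraries, where the JUN bars are taller. FOSB is too low to be seen.

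On the scale of log2(FPKM + 1), tested with limma among the 10976 genes whose mean reached 1 FPKM, 9 members were tested and FOSB fell below the filter. Of them 7 were higher, against a background of 36.7% of tested genes, and 2 were lower, against 44.2%. The change of FOS was 2.60 on this scale, smaller than by counts because the added 1 weighs on low levels, and that of FOSL1 was -1.65.

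The start regions of the higher members carried different letters. RefSeq windows of the GRCh38.p14 assembly, from 250 bases before to 50 bases after a start site, were matched by symbol for 8 members. FOSL1 and BATF3 were not matched. The patterns below were searched on both strands: TGACTCA, TGACGTCA, its looser form TGACNTCA, and ACGTG. TGACNTCA was added after windows had been seen and includes TGACGTCA. ACGTG is a form of the core of the hypoxia response element to which HIF binds. The other form, GCGTG, was not searched. The bases upstream of the start, from -100 to -1 (-150 to -1 for ATF3), are shown for the 3 members that rose most and for ATF3 and MAFF, which carry forms of TGACNTCA, with matches in capitals.
FOS, chr14:75278728-75278827, + strand: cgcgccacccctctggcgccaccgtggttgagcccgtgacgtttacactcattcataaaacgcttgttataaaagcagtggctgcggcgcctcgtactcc
FOSL2, chr2:28392758-28392857, + strand: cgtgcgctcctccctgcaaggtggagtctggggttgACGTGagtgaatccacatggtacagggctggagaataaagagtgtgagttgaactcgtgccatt
JUN, chr1:58784048-58784147, - strand: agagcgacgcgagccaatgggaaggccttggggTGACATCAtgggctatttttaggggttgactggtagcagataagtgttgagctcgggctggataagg
ATF3, chr1:212565257-212565406, + strand: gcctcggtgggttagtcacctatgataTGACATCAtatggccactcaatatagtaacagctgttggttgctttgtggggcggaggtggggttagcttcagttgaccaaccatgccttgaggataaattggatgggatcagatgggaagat
MAFF, chr22:38201894-38201993, + strand: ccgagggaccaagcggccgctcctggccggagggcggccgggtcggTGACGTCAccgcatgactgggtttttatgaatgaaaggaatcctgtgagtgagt

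In these windows JUN and ATF3 both held TGACATCA, at -67 to -60 in JUN and at -123 to -116 in the ATF3 window that starts furthest upstream. MAFF held TGACGTCA at -54 to -47 and JUND the same letters at -200 to -193. FOSL2 held ACGTG at -64 to -60 and a TGACTCA just past the start, at positions 5 to 11. MAFF held ACGTG at -196 to -191 and, before its other start site, at -81 to -76, each read on both strands. None of the searched patterns was found in the windows of FOS, FOSB and JUNB, which says only that these letters are not in them. GCGTG was not among the letters searched. Over all 35116 windows TGACTCA was present in 4.95%, TGACGTCA in 1.85%, TGACNTCA in 7.72% and ACGTG in 21.4%. Across the tested genes with a window, the 570 with TGACTCA were higher in 43.2% and lower in 34.6% of cases, and all 11197 were higher in 37.9% and lower in 40.1%. The 410 with TGACGTCA were higher in 32.4% and lower in 46.6%, the 922 with TGACNTCA in 38.9% and 38.8%, and the 3550 with ACGTG in 37.5% and 41.4%. This is a description of windows and not of binding.

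Among the other bZIP factors, potential partners and competitors of AP-1, BACH1 rose the most and ATF5 fell the most by the rule for named genes. NFE2, too low for that rule and named after its values were seen, had a larger log2-fold change of 5.26. Its counts were 40, 68 and 69 in the hypoxia libraries and 0, 1 and 3 in the normoxia libraries. Of 24 genes in this list 20 were tested, 7 were higher, 6 lower and 7 did not pass, with a median log2-fold change of 0.04. The shares of 35% higher and 30% lower lie near those of all tested genes, 39.2% and 38.5%. BACH1, a repressor that pairs with small MAF proteins such as MAFF, rose from 71.4 ± 15.98 to 356 ± 33.1 CPM (log2-fold change 2.32). JDP2, which pairs with JUN and represses, rose by 1.10 on the log2 scale, and ATF2, a partner of JUN, by 0.70. ATF5, a stress-related factor, fell from 53.8 ± 4.35 to 13.3 ± 2.36 CPM (log2-fold change -2.02). CREM, a factor of the cyclic AMP response, had a log2-fold change of -0.84 and NFE2L3, a relative of NFE2, of -0.82. MAFG, the small MAF named beside MAFF after its values were seen, had a log2-fold change of -0.72, while MAFK stood at 139 ± 4.86 CPM in hypoxia and 140 ± 8.65 CPM in normoxia.

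AP-1 genes are switched on by MAP kinases, which act on SRF with its ELK partners at FOS and on JUN and ATF2 at JUN. All 29 genes of the list were tested, and 10 were higher, 13 lower and 6 did not pass, with a median of -0.04 on the log2 scale. The shares of 34.5% higher and 44.8% lower lie near the background of 39.2% and 38.5%. MAPK11, a p38 kinase, rose by 1.07, MAPK7 (ERK5) by 0.89 and MAP3K1, which acts ahead of JNK, by 0.83. MAP2K3, which activates p38, fell from 97.1 ± 6.86 to 34.1 ± 3.01 CPM (log2-fold change -1.51). ELK3 had a log2-fold change of -0.89 and MAPK9 (JNK2) of -0.66. These are transcript levels, and the activity of a kinase was not measured.

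Among the other immediate early genes, MYC fell and DUSP1 rose by more than 2 on the log2 scale. Of 28 genes 24 were tested, 9 were higher, 13 lower and 2 did not pass, with a median log2-fold change of -0.24. The share of 37.5% higher lies near the background of 39.2%, and 54.2% were lower against 38.5%. DUSP1, a phosphatase that switches MAP kinases off, rose from 6.42 ± 0.245 to 28.5 ± 2.48 CPM (log2-fold change 2.15). GADD45B, a stress-response gene, rose by 1.97 and BTG2, an antiproliferative gene, by 1.56 on the log2 scale. MYC fell from 256 ± 5.12 to 34.9 ± 7.38 CPM (log2-fold change -2.88). SGK1, a kinase of salt and stress signalling, had a log2-fold change of -2.53 and CCN2, a secreted matrix-associated protein, of -2.26. EGR1, an SRF-driven gene often measured beside FOS and named here after its values were seen, stood at 19.5 ± 7.23 CPM in hypoxia and 20.4 ± 3.12 CPM in normoxia and did not pass (edgeR's quasi-likelihood test, adjusted p = 0.812).

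Among genes long known to carry AP-1 sites, 63.2% of those tested were lower, against 38.5% of all tested genes, and 21.1% were higher, against 39.2%. Of 25 such genes 24 were in the tables and 19 were tested, 4 were higher, 12 lower and 3 did not pass. Their median log2-fold change was -0.97, against 0.02 over all genes tested. HMOX1, which degrades heme, rose by 1.74, and LAMA3, a chain of laminin-332, by 0.44 on the log2 scale. SERPINB2, an inhibitor of plasminogen activators, fell from 90.0 ± 17.1 to 0.619 ± 0.173 CPM (log2-fold change -7.20). MMP1, a collagenase, had a log2-fold change of -3.13 and IL6, an inflammatory cytokine, of -3.04. CCND1, CXCL8 and PLAUR, named after their values were seen, had log2-fold changes of -2.22, -1.66 and -0.35. This list was drawn up from textbook sites, and most of these genes answer to many factors beside AP-1. It was chosen with earlier results of these data known, so its shares and median are a description and not a test.

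Among the 16 genes of that list with a window, 7 held TGACTCA, which the choice of the list favours. Of these, CXCL8, PLAUR and SPRR1B were lower, LAMA3 was higher, IVL did not pass, and SPRR1A and SPRR3 were below the filter on low counts. The 4 that passed are shown with the site, or its reverse complement TGAGTCA, in capitals, since they place the binding letters beside lower and higher genes.
CXCL8, chr4:73740416-73740455, + strand: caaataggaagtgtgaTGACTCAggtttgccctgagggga
PLAUR, chr19:43670332-43670371, - strand: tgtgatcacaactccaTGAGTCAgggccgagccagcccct
SPRR1B, chr1:153031046-153031085, + strand: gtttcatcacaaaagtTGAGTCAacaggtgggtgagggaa
LAMA3, chr18:23872879-23872918, + strand: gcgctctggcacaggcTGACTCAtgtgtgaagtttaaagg
LAMA3, chr18:23872935-23872974, + strand: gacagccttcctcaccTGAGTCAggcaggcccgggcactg

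The same 7 letters thus stand at -137 to -131 in CXCL8, at -186 to -180 in PLAUR, at -141 to -135 in SPRR1B and at -125 to -119 and -69 to -63 in LAMA3, and the genes changed in different directions. CXCL8 is a neutrophil chemokine, PLAUR the urokinase receptor and SPRR1B a protein of the cornified envelope. SPRR1B, named after its values were seen, had 8, 10 and 0 counts in the hypoxia libraries and 105, 69 and 39 counts in the normoxia libraries (log2-fold change -3.59).

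Of the 8 genes for turnover and cofactors of FOS and JUN proteins, 1 was higher, 6 were lower (75% against a background of 38.5%) and 1 did not pass, with a median log2-fold change of -0.26. DET1, which with COP1 marks JUN for degradation, rose by 0.65 on the log2 scale. COP1 itself, named after its values were seen, was among the lower genes, with a log2-fold change of -0.34. The call of DET1 was lost without hypoxia replicate 1 or normoxia replicate 1. COPS5, a coactivator of JUN, had a log2-fold change of -0.54 and FBXW7, a ubiquitin ligase subunit that recognizes JUN, of -0.48. No gene of this list changed by more than 1 on the log2 scale.

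**Figure D4:**
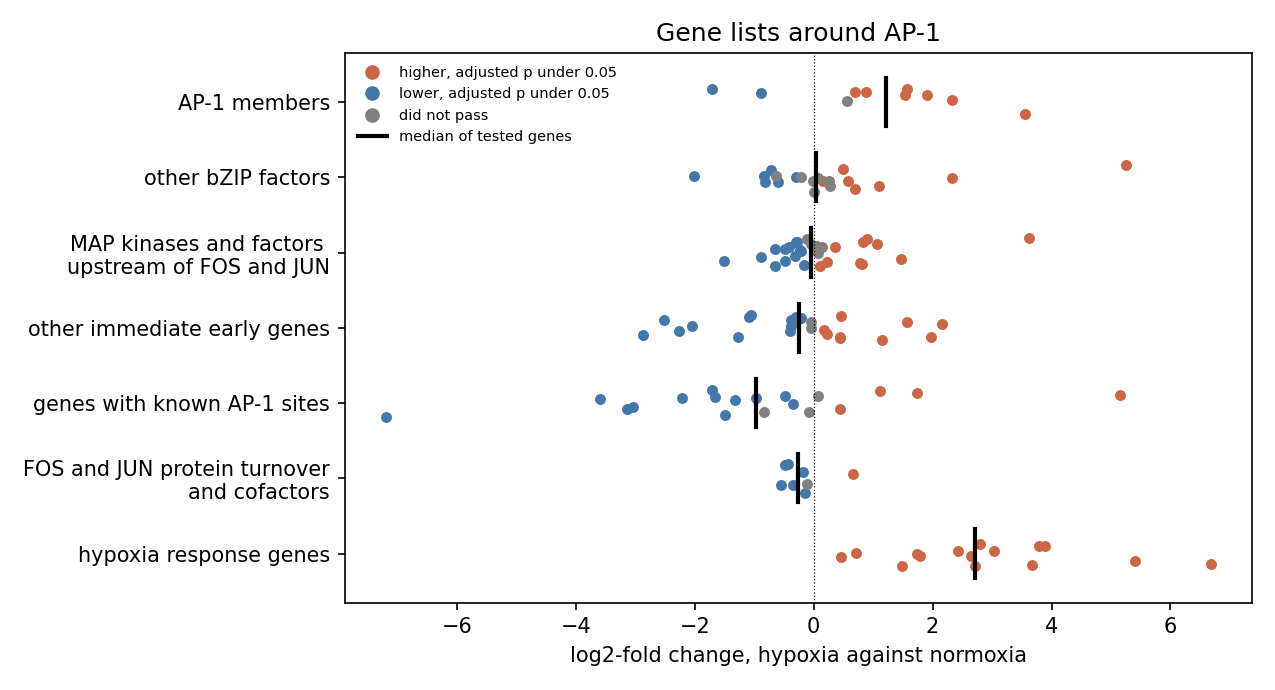
Log2-fold change of each tested gene in the AP-1 genes and 6 related lists, hypoxia against normoxia, with black bars for the median of each list. Orange and blue points passed an adjusted p under 0.05 as higher and lower, and grey points did not pass. The median lies at 1.21 for the AP-1 genes, near 0 for the other bZIP factors and the MAP kinases, at -0.97 for the genes with known AP-1 sites and at 2.71 for the hypoxia response genes.

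Hypoxia response genes and markers of other cells were measured beside the AP-1 genes. All 15 hypoxia response genes were higher (100% against a background of 39.2%), with a median log2-fold change of 2.71. They were led by EGLN3, an oxygen sensor (6.69), NDRG1 (5.40) and ANGPTL4 (3.89). Of the 12 squamous markers 11 were tested, 8 were higher (72.7% against a background of 39.2%), 2 lower and 1 did not pass. ITGB4, TRIM29 and DSG3 rose by 1.99, 1.46 and 1.35 on the log2 scale, and SFN and KRT5 had log2-fold changes of -0.80 and -0.18. Of 15 markers of fibroblasts, immune cells and endothelium, 14 were in the tables and 4 were tested. Of those tested 3 were higher (75% against a background of 39.2%) and 1 did not pass. The summed level of the 14 was 8.26, 7.04 and 6.77 FPKM in the hypoxia libraries and 1.32, 1.11 and 2.11 FPKM in the normoxia libraries. CD14 was the most abundant of them, with a mean of 2.12 FPKM and a log2-fold change of 2.45, and COL1A1 had a log2-fold change of 2.26. Among the defining markers, PTPRC, CD3E, CD79A, LYZ and COL3A1 had 3 or fewer counts in every library. Some other endothelial and fibroblast markers had counts above 3 in hypoxia libraries. CDH5 had 32, 28 and 34 counts in the hypoxia libraries and 9, 9 and 22 in the normoxia libraries, and passed the test. VWF had 10, 9 and 4 counts against 0 in every normoxia library, PECAM1 5, 9 and 10 against 2, 0 and 0, and LUM 27, 9 and 8 against 1, 1 and 2, all below the filter on low counts. COL1A2 overlapped between the groups, with 9, 0 and 8 counts in hypoxia against 3, 0 and 5. DCN had 2, 0 and 0 counts in hypoxia against 2, 4 and 0, and both were below that filter. The part of these genes in the AP-1 changes was not tested.

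For the 3 members that changed most, the genes with the most similar log2 CPM over the 6 libraries were sought among 9605 genes. ABHD14B (Pearson's r = 0.9994) was among the 2 closest to FOS, LY6D and SEMA4B (0.9999 each) were closest to FOSL2, and ESYT2 and GDF15 (0.9995 each) to JUN. GDF15 is a stress-induced cytokine, and LY6D and SEMA4B are surface proteins. These values describe 6 libraries that share 1 contrast, and 257 genes had an r over 0.99 with FOS, 898 with FOSL2 and 326 with JUN, so closeness to a member is common.

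In the annotation deposited beside the counts, the osteoclast differentiation pathway lists 7 of the 10 members, the IL-17 signaling pathway 5, and the MAPK pathway, the TNF pathway and the pathway of PD-L1 expression and the PD-1 checkpoint 3 each. The last holds FOS, JUN and BATF3, of which the first 2 were higher and BATF3 was lower under hypoxia. Among the genes named from the lists, MAFK, ATF5, CCND1, BACH1, MAPK7, COPS5, MAFG, IL6 and ANGPTL4 share exon bases with other genes of the tables in GENCODE v29, and their counts are uncertain to that extent. The longest stretches of these are 809 bases of MAFK with TMEM184A and 626 bases of ATF5 with NUP62, both on opposite strands.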

How the data were processed

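RNA was sequenced from 3 hypoxia and 3 normoxia libraries of SCC25 cells. The authors deposited raw counts per gene for 21776 genes and FPKM of the same genes, in which the total count and a whole-number gene length enter. The submitters' processing notes list the builds GRCm38 and mm10, which are mouse assemblies, while the tables hold human genes. Aligner, counting tool and annotation are not given in the sources used here, and coordinates above come from RefSeq windows alone. At 29637189 to 37278703 counted reads a library, a level of 3 or fewer counts was taken as the limit of measurement.

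The test of the counts was that of edgeR 4.0.16, run in R 4.3.3 (quasi-likelihood F test, TMM, filterByExpr, Benjamini-Hochberg at 0.05), with condition as the single term. CPM used library totals multiplied by the TMM factors. FPKM were tested as log2(FPKM + 1) with limma 3.58.1 at a mean of at least 1 FPKM. The tests were checked on simulated data in which few genes changed. In these data most tested genes were called, a case which that check did not cover. Alternatives were DESeq2 size factors, the DESeq2 1.42.0 Wald test, no filter, at least 10 counts in every library, a log2-fold change beyond 1, the replicate block, each library left out, a pseudocount of 0.1, no FPKM filter and shares by counts. Replicates of a group differed by more than sampling noise, with a chi-square of 5.11 to 11.5 per gene.

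Named genes are the 10 members, from each list the 3 largest increases and decreases among genes with an adjusted p under 0.05 whose groups did not overlap and whose mean log2 CPM reached 1, and the 2 genes most alike to each of the 3 most changed members (at a mean log2 CPM of 3 or more). Some genes that this rule names are not reported here. Members and lists were chosen with earlier results of these data known, so shares and medians over a list are descriptions. The lists are the other bZIP factors, the MAP kinases and factors upstream of FOS and JUN, the other immediate early genes, the genes with known AP-1 sites, the genes for turnover and cofactors of FOS and JUN, the hypoxia response genes, and the markers of squamous and of other cells.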

Additional observations from a re-analysis of the deposited data

How the results depend on the processing

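The counts of higher AP-1 genes kept the same value, 7, in every alternative fit of the counts that was run except a log2-fold change beyond 1, which left 5. The count of lower AP-1 genes was 1 with a log2-fold change beyond 1 and ranged from 1 to 2 as libraries were left out, since BATF3 lost its call. On the FPKM scale the count of lower AP-1 genes was 1 without the filter on low FPKM, where BATF3 had an adjusted p of 0.0505 by limma, and ranged from 1 to 2 as libraries were left out. The count of higher genes for turnover and cofactors ranged from 0 to 1 as libraries were left out. By counts in place of FPKM, the share of FOSL1 in the FOS group differed by -56.2 percentage points between the conditions, because the length of each gene no longer enters. As summed CPM, an alternative chosen after seeing the data, the FOS group stood at 0.837 times its normoxia level in place of 0.455, and the JUN group at 2.92 in place of 2.93 times. The ratio of the FOS group to the JUN group then differed by -3.53 between the conditions in place of -4.63. Of 181 results of single genes under an alternative, 177 kept their direction and side of the threshold, 4 kept their direction and lost the call, all of BATF3, and 0 reversed. Same-numbered libraries did not deviate together (correlations of 0.018, -0.069 and 0.0012), and differently numbered libraries gave correlations from -0.069 to 0.066. No shared deviation was thus seen by number. Whether the numbers mark a shared culture or preparation is not settled by these correlations. With the replicate block 10875 genes were called in place of 11090, and 7 AP-1 genes were higher and 2 lower. The filters moved the median log2-fold change of all genes by -0.04 where no filter was used and by 0.08 where each library needed 10 counts. FOSB and BATF3 had at most 88 counts in a library.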
